A study of Mus musculus with 9 samples.

Results

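Immediate early genes are transcribed within minutes of a stimulus, without the need for newly made protein. In neurons, calcium entry and the ERK kinase cascade act on factors that already sit at their promoters, mainly SRF with its partners and CREB, and the products then switch on later genes or act at the synapse. They serve as a readout of neuronal activity in the mature cortex and as a sign of stress or handling in many tissues. Here, 10 of them were followed, of 27095 loci in the deposited table, and the members were found by their symbols in its gene column. They are the AP-1 subunits Jun, Junb, Fos and Fosb, the transcription factors Egr1, Nr4a1 and Npas4, the synaptic gene Arc, the phosphatase gene Dusp1, and Ier2, whose product regulates transcription. Each of the 10 has 1 locus of its own, and none shares a locus name with another gene.

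RNA was sequenced from wild type C57BL/6 fetuses (C57BL/6J in the study's methods) on gestational day 17, in 3 groups of 3. All dams were injected on gestational day 7, the control dams with lactated Ringer's solution and the others with 2.9 g/kg EtOH, and the exposed offspring were divided by the presence (affected) or absence (unaffected) of ocular and cortical patterning defects. Fetal brain is the tissue in the labels and cortex in the study's methods. All 9 cortex marker genes examined had an FPKM of at least 12.6 in control offspring, while the 8 markers of midbrain, hindbrain and thalamus summed to 5.28. FPKM are counts of sequenced fragments divided by transcript length and library depth, so they may be compared between genes as well as between groups. The authors deposited 1 FPKM per group and locus, taken over its 3 animals, and single animals have no value here. No value below therefore has an error between animals, no difference was tested, and the order of the groups for a gene describes these 3 values and no more. In bulk RNA, fewer cells that express a gene and less of its RNA per cell cannot be told apart.

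The depth behind a value was read from the lowest loci, where single fragments appear as steps. Over genes with 1 annotated transcript and an FPKM below 0.05, 87.7% of the control values, 89.3% of the unaffected values and 77.2% of the affected values lay within 0.2 of a whole number of steps. The step size corresponds to about 25800000 fragments per library for controls, 28000000 in unaffected and 34300000 in affected offspring, so by this estimate the affected libraries were the deepest. These are rough figures, since they rest on annotated transcript lengths and an estimated fragment length of 180 nt. That length was chosen for the narrowest spread of steps in the control and unaffected groups, and the affected group had no part in the choice.

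CREB binds the cAMP response element, so the promoters were searched for its letters and for those of other sites known from early genes. RefSeq promoters (GRCm38.p6, from 250 bases before to 50 bases after the start of transcription) matched 7 of the 10 members, all but Egr1, Ier2 and Arc. The core of the cAMP response element, TGACG on either strand, was present in 6 of the 7, against 20.8% of all 32851 promoters, and Jun was the one without it. The full element TGACGTCA, which contains the core on both strands, was present in Dusp1 alone, against 1.79% of all promoters. The TATAAA box, searched on the coding strand, was found in Fos, at position -33 from the start, and in Junb, where it begins at position 1, after the start, against 8.32% of all promoters. The AP-1 site TGANTCA, on either strand, was in none of the 7 windows, against 7.81% of all promoters, and the CArG box bound by SRF was likewise in none, against 1.63%. At shares this low, absence from 7 windows carries little information. GCGNGGGCG, a form of the EGR site, was found on either strand in Fosb and Nr4a1, against 5.55% of all promoters. These are matches of letters, and what lies outside the window was not searched. The stretches below run from 10 bases before the first match to the last base before the start of transcription, 5′ to 3′ on the strand of the gene, and show every member with the core, from the most to the least expressed. Capitals mark the core and TATAAA boxes.
Dusp1, chr17:26508473-26508673, minus strand: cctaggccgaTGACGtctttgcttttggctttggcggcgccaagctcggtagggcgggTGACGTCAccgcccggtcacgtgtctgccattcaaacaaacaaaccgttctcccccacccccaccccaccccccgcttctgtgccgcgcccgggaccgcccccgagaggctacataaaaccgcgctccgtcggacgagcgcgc
Junb, chr8:84978749-84978864, minus strand: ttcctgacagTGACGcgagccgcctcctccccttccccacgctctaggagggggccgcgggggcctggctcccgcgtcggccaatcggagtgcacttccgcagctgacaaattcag
Nr4a1, chr15:101266603-101266845, plus strand: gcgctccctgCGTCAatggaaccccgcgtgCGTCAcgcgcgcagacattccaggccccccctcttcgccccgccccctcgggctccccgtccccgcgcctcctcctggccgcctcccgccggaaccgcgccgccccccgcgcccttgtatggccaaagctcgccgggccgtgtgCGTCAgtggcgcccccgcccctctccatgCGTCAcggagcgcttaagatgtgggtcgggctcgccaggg
Fos, chr12:85473751-85473889, plus strand: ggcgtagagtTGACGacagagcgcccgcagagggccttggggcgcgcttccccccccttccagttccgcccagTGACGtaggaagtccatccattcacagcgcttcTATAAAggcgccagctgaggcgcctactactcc
Npas4, chr19:4989972-4990160, minus strand: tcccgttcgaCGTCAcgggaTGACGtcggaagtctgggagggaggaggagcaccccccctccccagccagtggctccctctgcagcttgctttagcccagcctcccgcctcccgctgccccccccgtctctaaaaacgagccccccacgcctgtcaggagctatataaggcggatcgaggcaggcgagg
Fosb, chr7:19310046-19310115, minus strand: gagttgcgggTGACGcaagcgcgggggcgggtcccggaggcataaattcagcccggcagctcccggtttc

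Counted from the start of transcription, the core closest to it begins at -40 in Nr4a1, -60 in Fosb, -66 in Fos, -106 in Junb, -140 in Dusp1 and -169 in Npas4. Nr4a1 holds 4 matches, Dusp1 holds 3, 2 of them in the full element, Fos and Npas4 hold 2 each, and Fosb and Junb hold 1. Genes with several matches are thus found at both ends of the range of expression, with Dusp1 at the top and Npas4 near the bottom.

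The levels of the 10 genes differed far more from each other than the groups did. Averaged over the 3 groups, the FPKM were 20.1 for Dusp1 and for Jun, 7.85 for Ier2, 3.28 for Junb, 2.09 for Egr1, 1.87 for Nr4a1, 1.19 for Arc, 0.648 for Fos, 0.362 for Npas4 and 0.0908 for Fosb. In this order, 2 pairs of neighbours changed places between groups. Jun was above Dusp1 in affected offspring only, where the ratio of Dusp1 to Jun was 0.947 after 1.00 in control and 1.06 in unaffected offspring, and Nr4a1 was just above Egr1 in unaffected offspring. Of all loci, 83.6% had a lower mean than Dusp1 or Jun, 37.2% a lower mean than Fos and 27.5% a lower mean than Fosb. The 3 lowest members, Fos, Npas4 and Fosb, had a mean FPKM below 1, the filter used for counts over the list, so 7 members passed it.

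**Figure D1:**
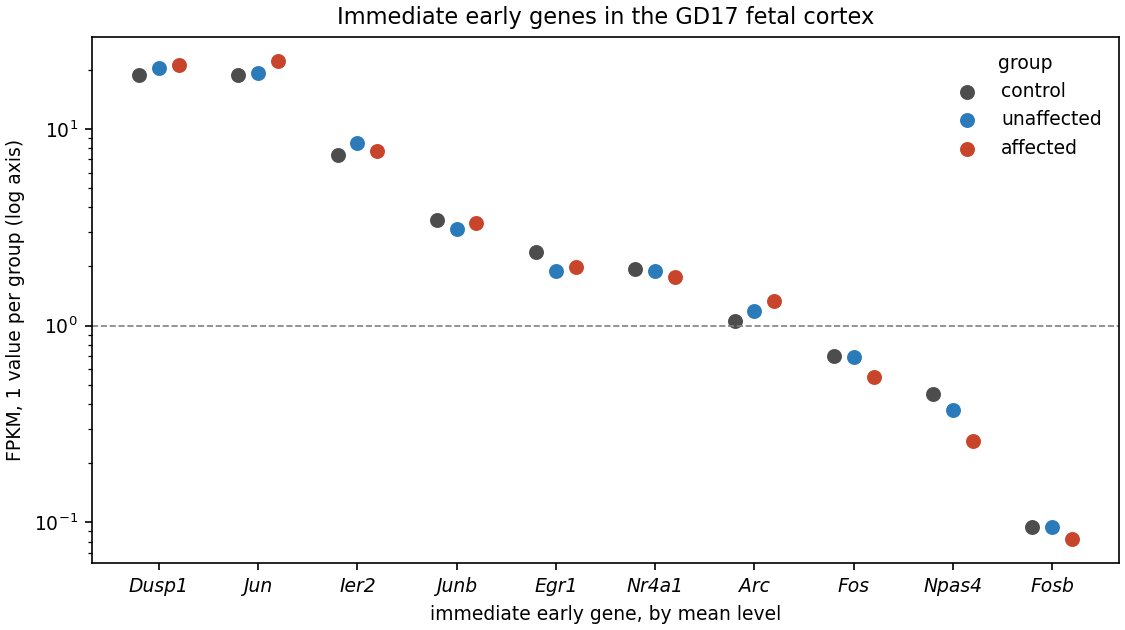
FPKM of the 10 immediate early genes on a log axis, with 1 point per group (the authors' value over 3 animals, with no error available) and a dashed line at the filter of 1. For each gene the 3 groups lie close together compared with the distance between genes, from about 20.1 for Dusp1 and Jun to 0.0908 for Fosb.

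Against this background of levels, the groups differed little. No member that passed the filter differed by 1.5-fold between any 2 groups, 0 of 7 in each comparison, where 5.54% of all 15548 loci passing the filter did so in unaffected against control offspring, 6.43% in affected against control offspring and 11.8% in affected against unaffected offspring. At a lower limit of 25% the members still numbered 0 of 7 in each comparison, and the shares of all loci were 12.3%, 23.4% and 38.4% in the same order. Both limits apply to FPKM with 0.1 added. Without it, the highest group exceeded the lowest by 1.26-fold for Arc and for Egr1, so Egr1 in unaffected against control and Arc in affected against control offspring were then past 25%, 1 of 7 in each of these comparisons. On the scale with 0.1 added, log2 fold changes of the 7 members had a median of 0.02 in unaffected against control, 0.06 in affected against control and 0.08 in affected against unaffected offspring. Over all loci the medians were 0.01, 0.02 and 0.01. With no filter, all 10 members had medians of -0.00442, -0.071 and -0.022, so the sign of each median rests on the filter. The 3 comparisons share groups, so each gene's values are given side by side and are not independent. Summed over all 10 genes, the FPKM were 55.2 in controls, 57.2 in unaffected and 60.3 in affected offspring. Dusp1 and Jun supply most of each sum, and of the 10 genes 4 were higher and 6 lower in affected than in control offspring.

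**Figure D2:**
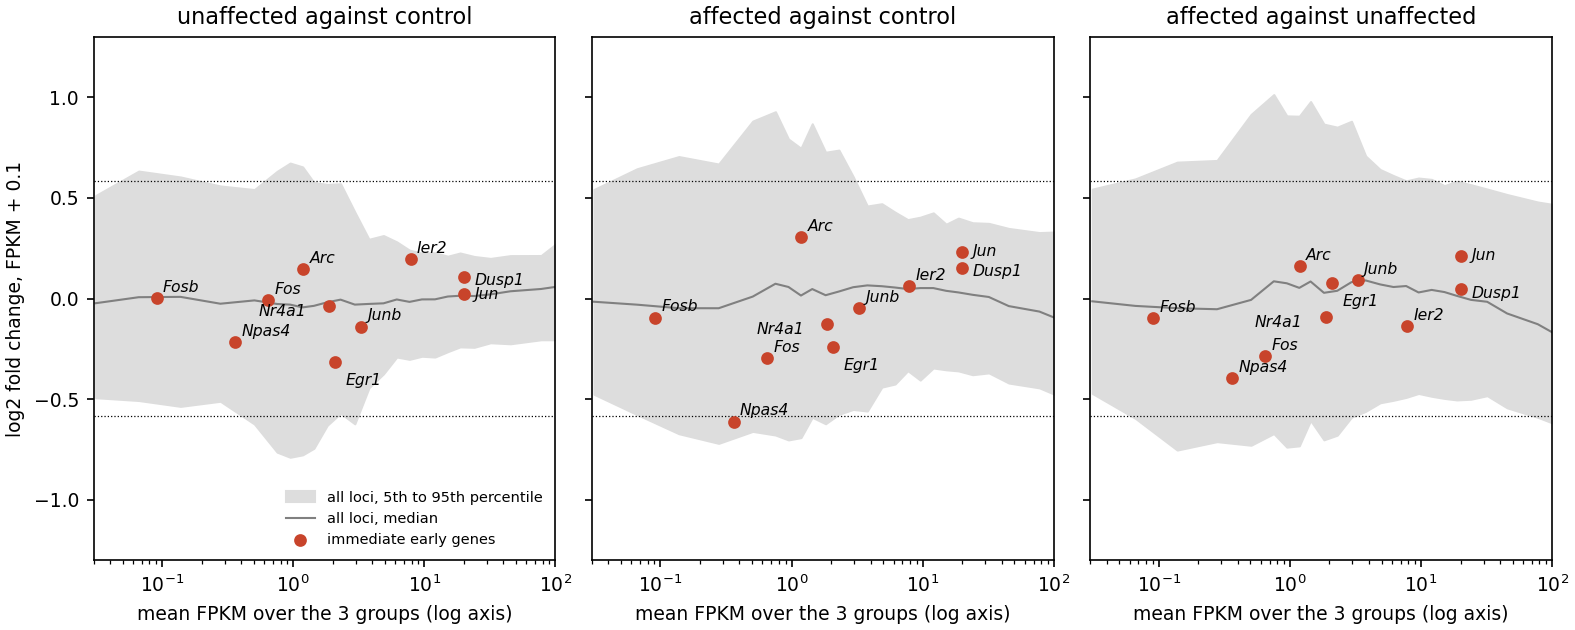
Log2 fold change of the 10 immediate early genes (FPKM with 0.1 added) against their mean FPKM on a log axis, in the 3 comparisons. The grey band runs from percentile 5 to percentile 95 of all loci at that level, dotted lines mark 1.5-fold, and all 10 genes lie inside the band in each panel.

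Dusp1 and Jun were the most abundant members and both were highest in affected offspring. Dusp1, which encodes a nuclear phosphatase that switches off MAP kinases, lies on chromosome 17 of mm10 from 26505590 to 26508472. Its FPKM was 18.9 in controls, 20.4 in unaffected and 21.03 in affected offspring, from about 2648, 3093 and 3916 fragments over 3 libraries. The log2 fold changes were 0.11 for unaffected and 0.15 for affected against control. Thus both exposed groups were above control, by 7.85% and 11.3%.

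Jun, on chromosome 4 from 95049035 to 95052222, encodes the AP-1 subunit c-Jun, which pairs with itself or with a Fos protein. It had an FPKM of 18.9 in controls, 19.1 in unaffected and 22.2 in affected offspring. The affected offspring stood apart for this gene, 17.7% above control and 16.0% above unaffected, with log2 fold changes of 0.23 and 0.21. Of all loci passing the filter, 79.5% had a lower log2 fold change against control. The locus overlaps Junos, a gene on the opposite strand, and the counting is not stated to use strand, so reads of the pair cannot be told apart. Junb, on chromosome 8 from 84976908 to 84978748, encodes a related subunit that can oppose c-Jun. Its FPKM was 3.43 in controls, 3.11 in unaffected and 3.32 in affected offspring, and control was highest. The ratio of Jun to Junb was 5.50 in controls, 6.17 in unaffected and 6.70 in affected offspring.

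The members Fos and Fosb were scarce, while their relative Fosl2, which is not a member, had an FPKM of 6.58 in controls. Fos, on chromosome 12 from 85473900 to 85477270, encodes the c-Fos subunit, which needs a Jun protein to bind DNA. Its FPKM was 0.699 in controls, 0.693 in unaffected and 0.551 in affected offspring. The control and unaffected values were nearly equal, and the affected value was 0.789 times the control value, with a log2 fold change of -0.29, or -0.13 with a pseudocount of 1 in place of 0.1. About 104, 112 and 109 fragments over 3 libraries stand behind these values, so the lower FPKM in the affected group came with a similar number of fragments in libraries estimated to be deeper. Fosb, on chromosome 7 from 19302695 to 19310045, encodes a related Fos protein, whose shortened form builds up in adult neurons under repeated stimulation. It had an FPKM of 0.0949, 0.0950 and 0.0825, or about 26, 29 and 31 fragments, the fewest of any member. The ratio of the FPKM of Jun to that of Fos was 27.0 in controls, 27.6 in unaffected and 40.3 in affected offspring.

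Egr1 encodes a zinc finger factor that is also a target of ERK signalling, and was the member with the largest difference between unaffected and control offspring. The gene lies on chromosome 18 from 34861206 to 34864956, and its FPKM was 2.38 in controls, 1.89 in unaffected and 2.00 in affected offspring. Both exposed groups were below control, at 0.795 and 0.840 times its value, with log2 fold changes of -0.32 and -0.24. Of all loci passing the filter, 6.98% had a lower log2 fold change in unaffected against control offspring. At the level of Egr1, however, percentile 5 of all loci was -0.66, so the value lay well within the range of loci with similar expression. The corepressor genes Nab1 and Nab2, whose products bind Egr proteins, had log2 fold changes against control of -0.04 and -0.10 in unaffected and 0.00 and 0.18 in affected offspring.

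Nr4a1, on chromosome 15 from 101266845 to 101274794, encodes the orphan nuclear receptor Nur77. It was the steadiest member above the filter, with an FPKM of 1.95 in controls, 1.90 in unaffected and 1.78 in affected offspring. The highest group exceeded the lowest by 1.10-fold, and 11.1% of the 5112 loci with a mean FPKM within 2-fold of its own had a smaller range between groups. Ier2, on chromosome 8 from 84661330 to 84662852, had 7.38, 8.47 and 7.70, and was highest in unaffected offspring, with a log2 fold change against control of 0.20. Of all loci passing the filter, 88.4% had a lower one.

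The neuronal members had opposite orders of the groups. Arc encodes a protein that moves to active synapses and promotes the removal of AMPA receptors, and lies on chromosome 15 from 74669080 to 74672570. Its FPKM was 1.06 in controls, 1.18 in unaffected and 1.33 in affected offspring, so control was lowest and affected highest. The affected value was 25.7% above control, with a log2 fold change of 0.30, from about 236 and 393 fragments over 3 libraries. With 0.1 added this was the largest positive difference among the 10 genes, while with a pseudocount of 1 it was 0.18, below the 0.22 of Jun. At 0.1, 86.4% of loci passing the filter had a lower value.

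Npas4, on chromosome 19 from 4984354 to 4989971, encodes a transcription factor that is largely restricted to neurons and depends on calcium entry. It had an FPKM of 0.450 in controls, 0.374 in unaffected and 0.260 in affected offspring, a descending order across the 3 groups. The affected value was 0.578 times the control value, the largest difference of the set, and the log2 fold change was -0.61. About 120 fragments in control and 92 in affected offspring stand behind it. With no filter on low values, Npas4 was the only one of the 10 members past 1.5-fold, in affected against control offspring, where 6.75% of all 27095 loci were past it. This rests on the low pseudocount, since with a pseudocount of 1 the log2 fold change was -0.20, under 1.5-fold. There were 0 of 10 in unaffected against control, with 5.35% of all loci, and 0 of 10 in affected against unaffected offspring, with 10.3%. Of the 2123 loci with a mean FPKM within 2-fold of that of Npas4, 74.8% had a smaller range between the groups. Summed, Arc and Npas4 had 1.51, 1.55 and 1.59, so the sum differed less than either gene.

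No group was uniformly high or low over the 10 genes. Control offspring had the highest value in 5 (Junb, Egr1, Nr4a1, Fos and Npas4) and the lowest in 4 (Dusp1, Jun, Ier2 and Arc). Affected offspring had the highest value in 3 (Dusp1, Jun and Arc) and the lowest in 4 (Nr4a1, Fos, Npas4 and Fosb). All 3 members below an FPKM of 1 were lowest in affected offspring, while the 2 most abundant were highest there.

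Fold changes over all loci followed transcript length, and the members ranged from 1522 to 3782 nt. In affected against unaffected offspring the median log2 fold change was -0.35 for loci with transcripts under 1.5 kb, -0.04 from 1.5 to 4 kb and 0.25 over 4 kb. Against control the medians for affected offspring were -0.23, -0.01 and 0.17, and those for unaffected offspring were 0.11, 0.03 and -0.08. The short gene Ier2, with 1522 nt, had a log2 fold change of 0.06 in affected against control offspring where the running median at its length was -0.14. For Dusp1 the values were 0.15 and -0.06, for Arc 0.30 and 0.04, and for Egr1 -0.24 and 0.03. Relative to this running median, 5 of the 7 members were higher in affected than in control offspring, with a median of 0.19, and 6 of the 7 were higher in affected than in unaffected offspring, with a median of 0.13. By construction, about as many loci lie above a running median as below it, so these counts, over only 7 genes, are given without a reading. The part of transcript length in these values was not tested.

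**Figure D3:**
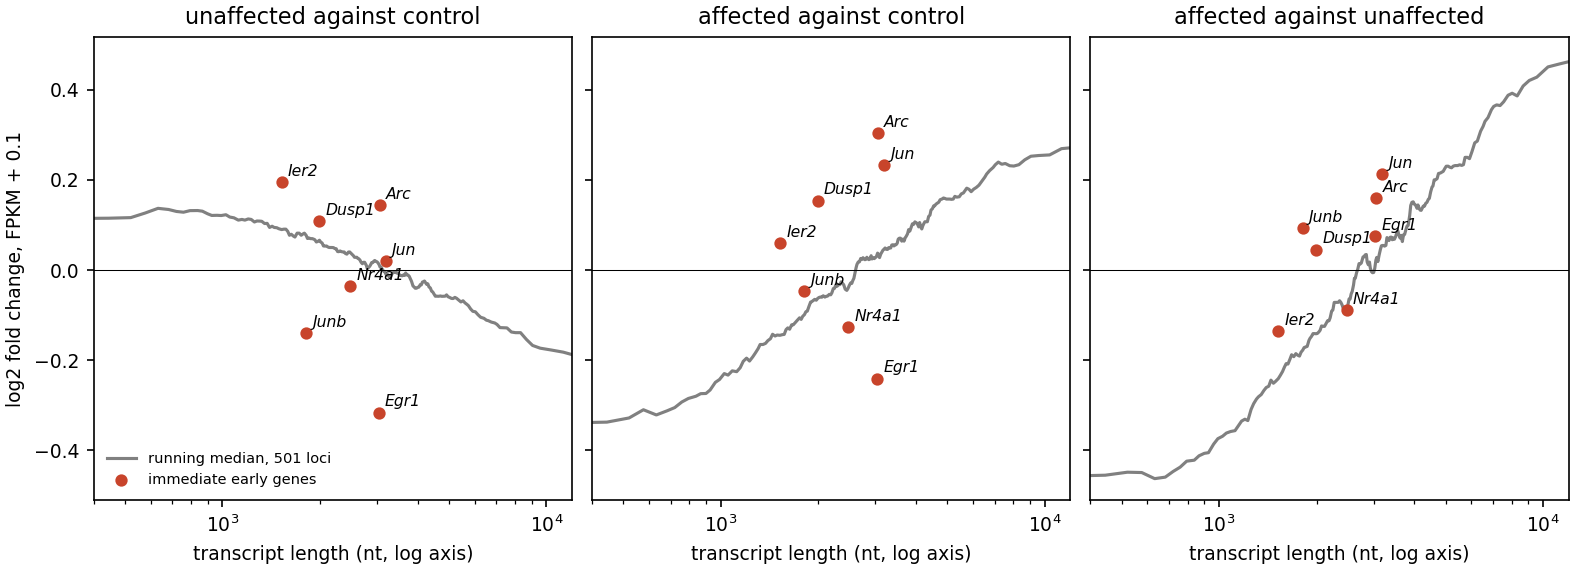
Log2 fold change against transcript length on a log axis, with the running median over neighbouring loci (grey) and the 7 immediate early genes with a mean FPKM of at least 1 (red). In affected offspring the running median climbs from short to long transcripts, with medians of -0.23 under 1.5 kb and 0.17 over 4 kb against control, and in unaffected offspring it descends.

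The wider set of early response genes was divided into 16 further transcription factors, 20 genes with other products and 10 effectors of neuronal activity. Together with the 10 members, 46 of these genes passed the filter, and none was past 1.5-fold against control in either exposed group. In affected against unaffected offspring 3 of the 46 were, all transcription factors and all higher, where 11.8% of all loci were past the limit. Nr4a3, a receptor of the same family as Nr4a1, had an FPKM of 12.5 in controls, 8.83 in unaffected and 17.5 in affected offspring. Nr4a2, which is required in dopamine neurons, had 14.2, 10.7 and 18.3, and Fosl2, a Fos relative, had 6.58, 5.32 and 8.68. In each the unaffected group was lowest and the affected group highest, and the log2 fold changes between them were 0.98, 0.77 and 0.70. Relative to the running median by length they were 0.73, 0.70 and 0.38, so Fosl2 was then under 1.5-fold. Inhba, a neuronal effector that encodes an activin subunit, went from 0.46 to 0.70 and so past it. Nr4a1 did not share this order, as its affected value was the lowest of the 3.

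Among the other early response genes, 0 of 20 were past 1.5-fold in any comparison, and their medians lay between -0.07 and 0.02. The most abundant, Plk2, which encodes a kinase acting at synapses, had an FPKM of 67.7, 62.1 and 69.8, and the least abundant, Dusp5, a phosphatase gene like Dusp1, had 1.08, 1.32 and 1.07. Of the neuronal effectors, 8 of 10 passed the filter and none was past the limit without the length correction, with medians of -0.10 and -0.07 against control and 0.03 in affected against unaffected offspring. Nrn1, which encodes a secreted protein that promotes neurite growth, was the most abundant with 29.5, 30.3 and 27.0, and Ptgs2, the inducible cyclooxygenase gene, was the least abundant with 0.00634, 0.00595 and 0.00702. At 1.5-fold, all loci gave the same 5.54%, 6.43% and 11.8% as above.

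**Figure D4:**
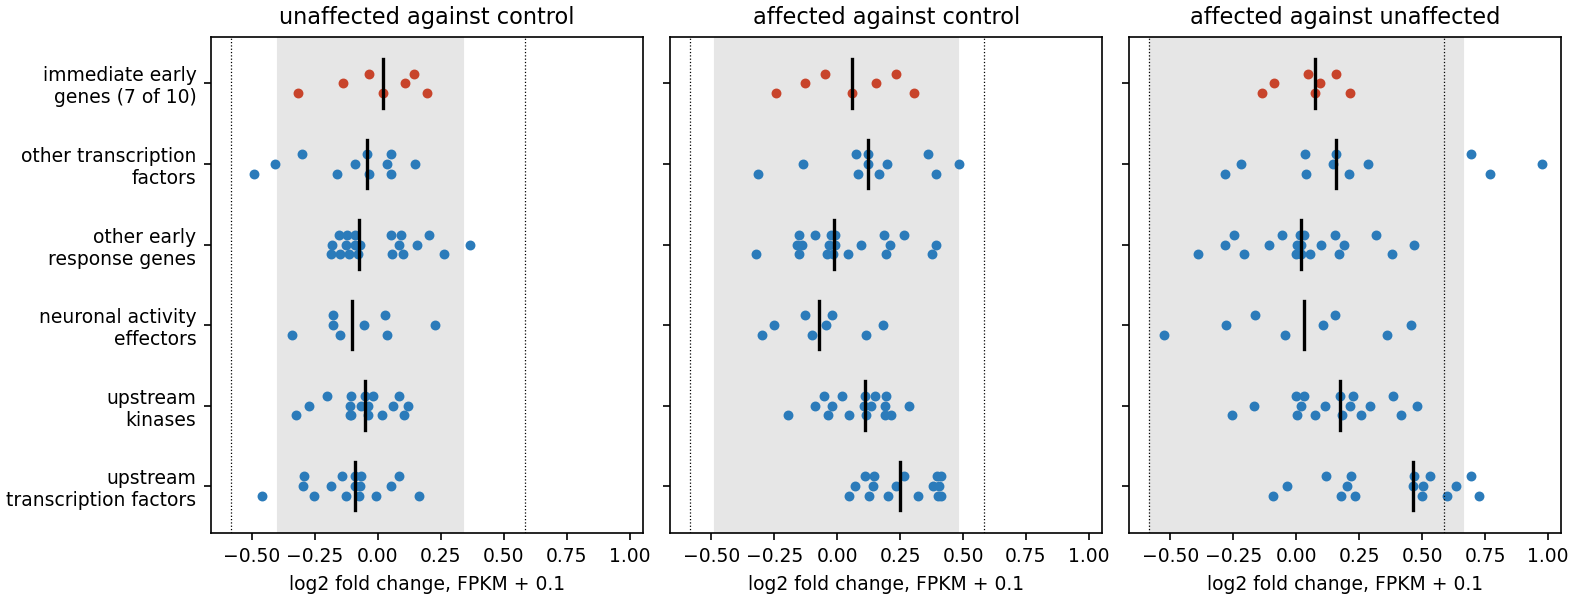
Log2 fold changes of genes with a mean FPKM of at least 1 in 6 lists, with 1 point per gene and a bar at the median. Dotted lines mark 1.5-fold and the grey area runs from percentile 5 to percentile 95 of all loci. The 7 immediate early genes in red stay within the dotted lines in each panel, and the upstream transcription factors lie to the right of 0 in affected against control offspring.

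Upstream of the early genes, 16 transcription factors and coactivators that act at their promoters were examined. All 16 had a higher value in affected than in control offspring, as had 52.9% of all loci. Their log2 fold changes ranged from 0.05 to 0.41 around a median of 0.25, so none was past 1.5-fold, where 6.43% of all loci were. Against unaffected offspring 14 of 16 were higher, as were 51.2% of all loci, and the median was 0.46. Of the 16, 4 were past 1.5-fold, where 11.8% of all loci were. In unaffected against control offspring 3 were higher and 13 lower, with a median of -0.09, where 48.3% of all loci were lower. Crebbp and Ep300, which encode the acetyltransferases recruited by CREB, had an FPKM of 7.55 and 8.08 for controls, 6.32 and 6.57 for unaffected and 9.87 and 10.7 for affected offspring. Crtc1, a CREB coactivator gene, had 16.0, 14.1 and 21.4, and Mef2c, which encodes a factor that binds activity-regulated genes, had 46.3, 33.6 and 55.7. Many of these transcripts are long, and relative to the running median by length the list's medians were 0.14 (against control) and 0.27 (against unaffected), over the 15 genes with a length. On that scale 13 of the 15 were higher and 2 lower against control, and 12 were higher and 3 lower against unaffected offspring. Of the 4 genes past 1.5-fold, Mef2c stayed past it with 0.71, while Crebbp had 0.18, Ep300 0.27 and Crtc1 0.36, and Mef2d, at 0.50 before, was past it with 0.69. The kinases of the ERK and JNK cascades had medians of -0.05, 0.11 and 0.18 over 17 genes, and these were -0.02, -0.01 and 0.03 over 15 genes relative to the running median. Mapk8, the most abundant kinase gene, had 99.1, 103 and 86.5, and Rps6ka4, the least abundant, had 3.09, 2.87 and 2.91 at a locus that it shares with Mir5046.

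Several members are also expressed in vessels, microglia and meninges, or respond to heat and handling. The summed FPKM of the 7 endothelial markers was 63.7 for the control, 63.9 for the unaffected and 67.7 for the affected group, and 5 of the 7 were higher in affected than in control offspring. For the 7 microglial markers the sums were 51.8, 54.6 and 44.2, and 5 of the 7 were below control in the affected group. The 5 markers of meninges summed to 85.1, 78.3 and 75.6, and 3 of the 5 were lower. With 0.1 added, none of these genes was past 1.5-fold in any comparison, where 5.54%, 6.43% and 11.8% of all loci were. The microglial gene Aif1 lay just under the limit in affected against control offspring, with an FPKM of 1.83 after 2.79 and a log2 fold change of -0.58, and without the 0.1 it would be past it. Relative to the running median by length, this log2 fold change was -0.31. The cortex markers summed to 945, 846 and 1099, and all 9 were higher in affected than in control offspring. Of the thalamus markers, Tcf7l2 had 4.18, 2.29 and 2.39, and Gbx2, whose mean was below 1, had 1.02, 1.23 and 0.659. Of the heat shock genes, Hspa8 had 1689, 1749 and 1590, and Hspa1b, which has a near-identical copy and is uncertain for that reason, had 0.0949, 0.148 and 0.138, while that copy, Hspa1a, had 0.249, 0.154 and 0.149. Of the 4 heat shock genes that passed the filter, 1 was above and 3 were below control in the affected group. Of the choroid plexus markers, Clic6 had 4.48, 5.36 and 8.31, while Ttr had 970.2, 1291 and 1077 and Folr1 had 9.68, 11.6 and 10.4, so in affected against unaffected offspring 1 of the 3 that passed the filter was higher and 2 were lower. Against control all 3 were higher in both exposed groups. Relative to the running median by length, all 3 were also higher in affected than in unaffected offspring, and their median went from -0.15 to 0.14. The globin genes Hba-a1 and Hba-a2 jointly name 2 loci, of which the more abundant had 236, 304 and 189. The part of these differences in the values of the immediate early genes was not tested.

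The genes with the pattern most like the median of the 7 members, by distance in the 2 log2 fold changes against control, were Kdelr2, Rbm33, Ccdc71l, Doc2a and Traf7. The largest distance among them was 0.00366. The pattern is a common one, since 562 of 12433 named loci lay within 0.05 of the median, and it rests on 3 group values.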

How the data were processed

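Libraries from 9 fetuses (3 per group) were prepared with a TruSeq RNA kit (Illumina) and sequenced as paired reads. Alignment was to mm10; the methods name STAR and also Bowtie with TopHat, and the submitters' processing notes name Bowtie2 2.2.4.0, Cufflinks and Cuffdiff. The authors deposited 1 FPKM per group and locus, with the fold changes, p-values and q-values of their own comparisons, which were not used. Of 27095 loci, 3871 have no name and 351 carry joined names. Per the methods, these values are scaled to gene length and to the total of mapped reads; any further scaling between libraries by Cuffdiff is not given in the sources used here.

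Log2 fold changes were computed here from FPKM with a pseudocount of 0.1, which understates changes of low genes, and counted past 1.5-fold (0.58 on the log2 scale) among loci with a mean FPKM of at least 1 over the groups. Without values per animal, the design's provision of a fixed fold was used in place of a test. Transcript lengths came from GENCODE M21, as the median over transcripts with a RefSeq match (over all transcripts where there was none), for 12334 of 12440 named single-gene loci that passed the filter. Calculations used Python 3.11.15, numpy 2.4.6, pandas 2.3.3 and matplotlib 3.10.9, and were tested on simulated data.

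The members and lists were chosen with earlier results of these data known. Named were all members, the genes of each other list past 1.5-fold in any comparison or otherwise the most and the least abundant, and the 5 loci nearest to the members' median pattern. The alternatives were no pseudocount, a pseudocount of 1, no filter, a mean FPKM of at least 5, centring on the median, removal of the length trend, leaving out joined loci, and limits of 25% and 2-fold.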

Additional observations from a re-analysis of the deposited data

How the results depend on the processing

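Most values of the members held under other settings. Of the counts of members past 1.5-fold, 1 changed, from 0 of 7 to 1 of 10 (Npas4) in affected against control offspring without the filter, and the median of that comparison then went from 0.06 to -0.071, because Fos, Npas4 and Fosb entered. Removing the length trend took the same median from 0.06 to 0.19. Without the filter the medians of the other comparisons also went below 0, to -0.00442 for unaffected against control and -0.022 for affected against unaffected offspring. The remaining medians kept their sign and moved by less than 0.1, and the remaining counts stayed at 0. Without a pseudocount, the log2 fold change of Npas4 in affected against control offspring was -0.79, and with a pseudocount of 1 it was -0.20, which ends its call past 1.5-fold. With a pseudocount of 1, Fos was at -0.13 against control and against unaffected offspring and Arc at 0.18 against control, and without a pseudocount Fosb was at -0.20 in both, all for affected offspring. Npas4 in affected against unaffected offspring went from -0.40 to -0.52 without a pseudocount and -0.12 with 1, and in unaffected against control offspring from -0.22 to -0.078 with 1. No sign of a member's log2 fold change depended on the pseudocount. Centring changed the sign of 1 of 30 values (Fosb, near 0), and removal of the length trend changed 2 of 21 (Junb in affected against control and Ier2 in affected against unaffected offspring). It also took Ier2 from 0.06 to 0.20 against control, and Dusp1 from 0.045 to 0.19 and Junb from 0.092 to 0.27 against unaffected, in affected offspring. No leave-one-out analysis could be made because the table holds no values of single animals. No paired analysis was possible because the table holds 1 value per group. Depth limits Fosb, Npas4 and Fos most, with about 26 to 120 fragments per group.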
